A study of Mus musculus with 10 samples.

Results

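The AP-1 subunits and their relative Atf3 were followed in mouse lung. Every probe set whose only gene symbol in the platform annotation was Fos, Fosb, Fosl1, Fosl2, Jun, Junb, Jund or Atf3 was taken, which gave 12 probe sets for these 8 genes out of 45101 on the array. The lungs came from adult female C57BL/6 mice, 5 given arsenic at 50 ppm in drinking water for 12 weeks from 8 weeks of age and 5 control mice given deionized water. The series text names the compound arsenate and the sample fields name arsenite, so the exposed group is called arsenic here. Each animal gave 1 Affymetrix Mouse430_2 array of lung tissue, and no genetic modification is recorded for either group. The comparison addresses how lung transcripts differ after subchronic exposure.

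AP-1 is a family of paired transcription factors with a basic region that contacts DNA and a leucine zipper that joins the partners. Jun proteins pair with each other or with Fos proteins, whereas Fos proteins need a Jun partner. Fos, Fosb, Jun, Junb and Atf3 are immediate-early genes, switched on within minutes by growth factors, handling, injury or stress through MAP kinases and then silenced again, while Jund is expressed more steadily. Atf3 is a related factor that responds to many stresses and often represses its targets, and arsenite is a classical inducer of AP-1 in cultured cells.

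Of the 12 probe sets, 8 lay above the median of the whole table, a log2 value of 4.20, on all 10 arrays, and these cover 6 genes: Fos, Fosl2, Jun, Junb, Jund and Atf3. The other 4 lay below it on all 10 arrays, so no probe set passed this filter through 1 group alone. With limma and Benjamini-Hochberg adjustment over the 22495 probe sets past the filter, 0 of the 8 passed an adjusted p of 0.05, where 0.44% of all tested probe sets did. At an unadjusted p of 0.05 there was 1 of 8, against 17.2% of all tested, and this was Atf3. In 0 of the 8 did the control and arsenic values separate without overlap, as they did in 3.86% of all tested. Atf3 had the largest difference of the 8, a mean 2.37-fold lower value with arsenic. The other 7 had mean differences between -0.18 and 0.06 on the log2 scale.

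Upstream sequence is shown for Fos, Jun and Atf3. In these the search below found an element that AP-1 or ATF/CREB factors are known to bind. The sequence is read 5′ to 3′ on the gene's strand up to the base before the gene's RefSeq start (GRCm38.p6). Capitals mark the motif found by the search, and in Fos also the TATA box.
Fos: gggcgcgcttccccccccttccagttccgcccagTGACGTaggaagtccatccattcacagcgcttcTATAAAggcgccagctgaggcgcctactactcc
Jun: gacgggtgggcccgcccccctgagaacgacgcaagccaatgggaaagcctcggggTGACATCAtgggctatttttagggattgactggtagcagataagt
Atf3: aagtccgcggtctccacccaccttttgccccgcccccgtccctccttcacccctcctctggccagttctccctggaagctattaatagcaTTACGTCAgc
These are chr12:85473790-85473889 on the plus strand for Fos, chr4:95052223-95052322 on the minus strand for Jun and chr1:191183334-191183433 on the minus strand for Atf3.

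RefSeq windows of 250 bases before to 50 after the start were at hand for 7 of the 8 members and were searched on both strands. The variants TGACATCA and TTACGTCA joined the search after the sequences had been read, so their presence in Jun and Atf3 was known in advance. The shares of windows that hold these variants therefore do not measure how unusual that presence is. Fos held the core site TGACGT of a cyclic AMP response element 66 to 61 bases upstream of its start and TATAAA 33 to 28 bases upstream. The core site occurs in 7.51% of all 32851 windows and TATAAA in 13.6%. Jun held the variant TGACATCA 45 to 38 bases upstream, which 3.62% of windows hold. Atf3 held TTACGTCA 10 to 3 bases upstream, a form that overlaps the core site and occurs in 0.499% of windows. Junb held TATAAA from the start base itself. The full element TGACGTCA (1.79% of windows), the AP-1 site searched as TGACTCA or TGAGTCA (5.2%) and the CArG box of serum response factor (1.63%) were in none of the 7 windows, and the windows of Fosl2, Fosb and Jund held none of the motifs searched. The Fos and Atf3 windows share the core site. Fos had a mean log2 difference of -0.13 and Atf3 of -1.24, and a link between the site and these differences was not tested. A match of letters is a description and shows neither binding nor its absence. Sequence outside the windows was not searched, so an element farther upstream, a CArG box included, would be missed.

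Atf3 was the member with the widest spread. Its probe set read 7.22, 8.51, 7.07, 7.18 and 8.33 in control animals 1 to 5, and 5.96, 7.19, 5.95, 5.69 and 7.31 in arsenic animals 1 to 5 (log2 expression values). Arsenic animals 1, 3 and 4 lay below every control, whereas arsenic animals 2 and 5 lay inside the range of the controls. All 5 arsenic values were under the control mean. The means were 7.66 ± 0.70 (SD, n = 5) in controls and 6.42 ± 0.76 (n = 5) with arsenic. The log2 difference was -1.24 (SE 0.41, 95% confidence interval -2.14 to -0.35), with a limma p of 0.0111 before and 0.190 after adjustment over all probe sets. Atf3 ranked 1316 of 22495 by p and did not pass. In lung tissue, fewer cells that express a gene and less of its RNA per cell cannot be told apart.

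The mean log2 level of 20 kidney markers, 8 past the filter, ran from 3.33 to 4.78 in controls and 4.27 to 5.62 with arsenic. It was highest in arsenic animal 4, where Atf3 was lowest. Control animal 1, with the lowest level, had Atf3 at 7.22. Arsenic animals 2 and 3, with levels of 4.49 and 4.52, had Atf3 at 7.19 and 5.95. For the kidney level the exact two-sided permutation p was 0.103 before and 0.774 after adjustment over 15 levels. The smallest exact p this design allows, 0.00794, cannot pass alone over 15 levels. A level's failure to pass after adjustment thus decides nothing. All 8 past the filter had positive differences with arsenic (median 0.92), 3 at an unadjusted limma p under 0.05 and 0 after adjustment. Among them Kap had 2.78, Umod, the uromodulin gene of the thick ascending limb, 2.26, Slc27a2 1.82, Slc22a12, the urate transporter of the proximal tubule, 1.08 and Cdh16 0.59 (limma adjusted p 0.220 to 0.369). Nphs1, Aqp2, Kcnj1 and Slc12a3, which mark the kidney's filter and tubules, were below the filter and read at most 2.63 on any array. Cubn and Slc12a1 did not pass the filter either, but reached 7.11 and 5.46 on their highest arrays. All kidney genes named here were picked after their values were seen. With this level as a covariate the Atf3 difference was -0.88 (limma adjusted p = 0.262). Of the other 12 cell-marker levels, that of blood cells had the smallest p (7.64 to 7.84 in controls, 7.78 to 8.11 with arsenic, exact permutation p = 0.0238, adjusted 0.357). The part of these levels in the Atf3 difference was otherwise not tested.

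**Figure D1:**
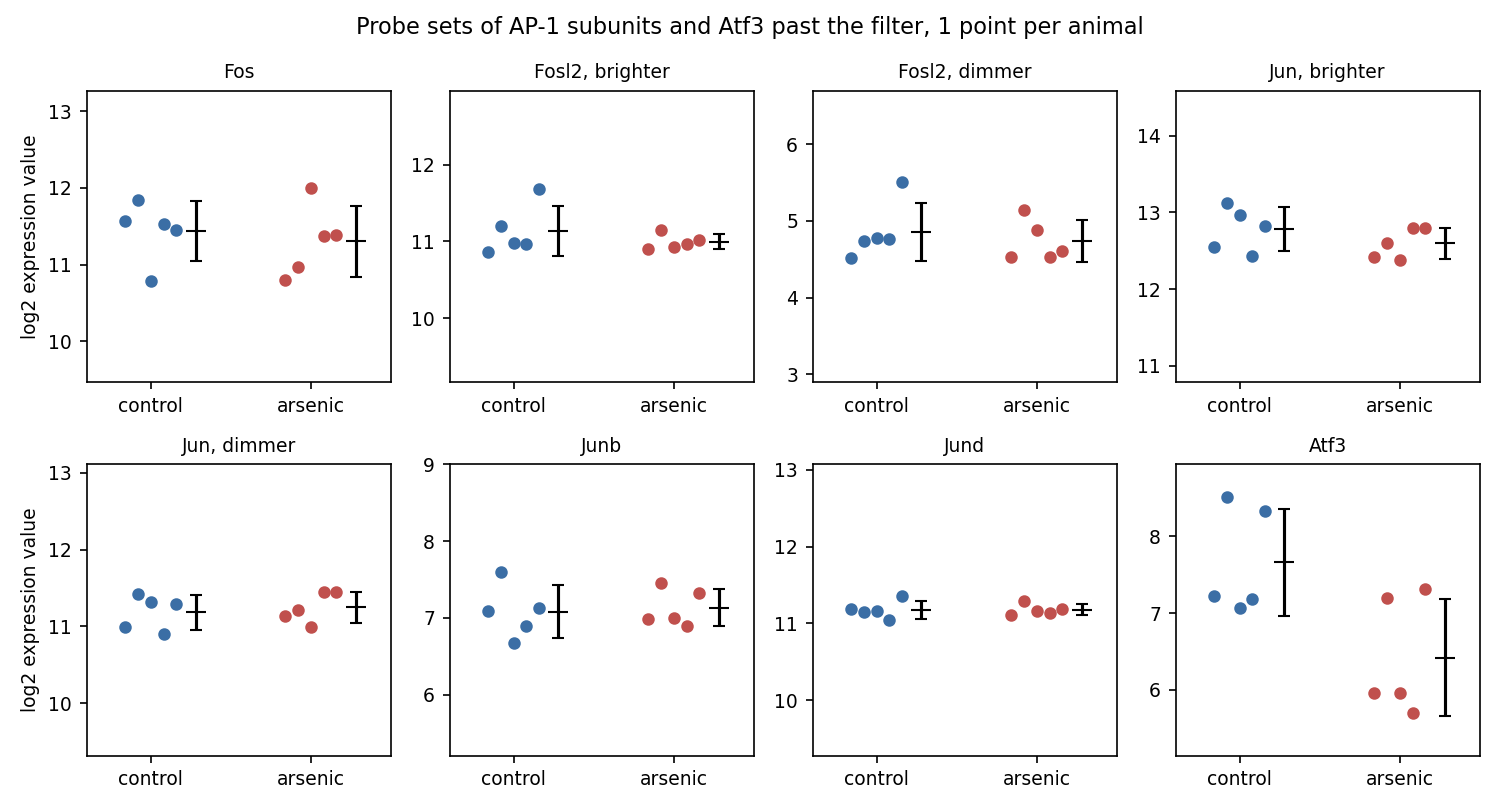
Log2 expression values of the 8 probe sets past the filter, 1 point per animal in replicate order, with the group mean and SD as a bar beside the points; each panel spans the same 3.8 log2 units. Atf3 has 3 arsenic animals below all controls, and Jund shows the tightest values.

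Fos, the founding Fos subunit and a standard marker of recent cell stimulation, did not pass. It read 11.57, 11.84, 10.78, 11.53 and 11.46 in controls 1 to 5 and 10.80, 10.96, 12.00, 11.37 and 11.38 in arsenic animals 1 to 5. The highest value of all 10 was that of arsenic animal 3 and the lowest that of control animal 3, so the groups overlapped over nearly their whole range. The means were 11.44 ± 0.39 and 11.30 ± 0.46 (SD, n = 5 each). The difference of -0.13 (SE 0.24) had a limma adjusted p of 0.791. Its 95% confidence interval, -0.67 to 0.40, corresponds to a change of -37.1% to 32.1%.

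Fosl2 encodes Fra-2, a Fos-family subunit that lacks the strong activation domain of Fos. Its brighter probe set read 10.86, 11.20, 10.98, 10.97 and 11.68 in controls and 10.90, 11.15, 10.93, 10.96 and 11.02 with arsenic. Control animal 5 stood above the other 9, which lay within 10.86 and 11.20. The difference was -0.14 (SE 0.14, 95% confidence interval -0.46 to 0.18, limma adjusted p = 0.614). The dimmer probe set gave -0.12 (SE 0.19, adjusted p = 0.751), with control animal 5 again the highest at 5.51. Without control animal 5 the brighter set gave -0.0074 and the dimmer one 0.040, so the small negative differences of Fosl2 rest on that animal.

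Fosb, a Fos paralog that neurons accumulate after repeated stimulation, and Fosl1, which encodes the Fra-1 subunit, were below the filter on every array. The Fosb probe set lay between 2.12 and 2.82 in controls and between 2.10 and 3.49 with arsenic, the top value being that of arsenic animal 5. Its means were 2.41 ± 0.25 and 2.59 ± 0.58 (SD, n = 5 each). The Fosl1 probe sets had means of 2.09 and 2.04 in controls and 2.10 and 2.00 with arsenic, with SDs of at most 0.05. In the fit without a filter, Fosb had a limma adjusted p of 0.689 and the Fosl1 sets of 0.818 and 0.335. Values this near the bottom of the scale give little room for a difference to show.

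Jun, the subunit that the kinase JNK phosphorylates, was read by 2 probe sets annotated to the same RefSeq transcript. The brighter one read 12.55, 13.13, 12.96, 12.44 and 12.82 in controls and 12.42, 12.60, 12.37, 12.79 and 12.80 with arsenic. Controls 2 and 3 were the highest, and the groups overlapped. The difference was -0.18 (SE 0.15, 95% confidence interval -0.51 to 0.14, limma adjusted p = 0.522). The dimmer one read 10.99, 11.42, 11.31, 10.90 and 11.29 in controls and 11.14, 11.21, 10.99, 11.44 and 11.45 with arsenic. Here the difference was 0.06 (SE 0.13, 95% confidence interval -0.22 to 0.35, limma adjusted p = 0.811), of the opposite sign.

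Within each array, the brighter Jun probe set minus the dimmer one was 1.57, 1.70, 1.65, 1.53 and 1.53 in controls 1 to 5 and 1.28, 1.39, 1.39, 1.35 and 1.34 in arsenic animals 1 to 5. All 5 arsenic animals lay below all 5 controls, although each probe set alone overlapped. The shift was -0.25 (SE 0.06, 95% confidence interval -0.38 to -0.11), from 1.60 ± 0.08 to 1.35 ± 0.05 (SD, n = 5 each). This comparison was added after the values were seen, and it was fitted with limma over all 13094 pairs of probe sets that share a gene. Jun ranked 144 of these pairs, with a p of 0.00182 before and 0.166 after adjustment, so it did not pass. Non-overlapping groups occurred in 2.34% of such pairs and 0.0458% passed. The corresponding difference for Fosl2 shifted by -0.02 (adjusted p = 0.960). The 3′ to 5′ log2 ratio of the Actb control probe sets ran from 0.58 to 0.65 in controls and from 0.50 to 0.70 with arsenic, and with it as a covariate the Jun shift was -0.25. An unequal change of the 2 Jun probe sets was thus not shown.

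**Figure D2:**
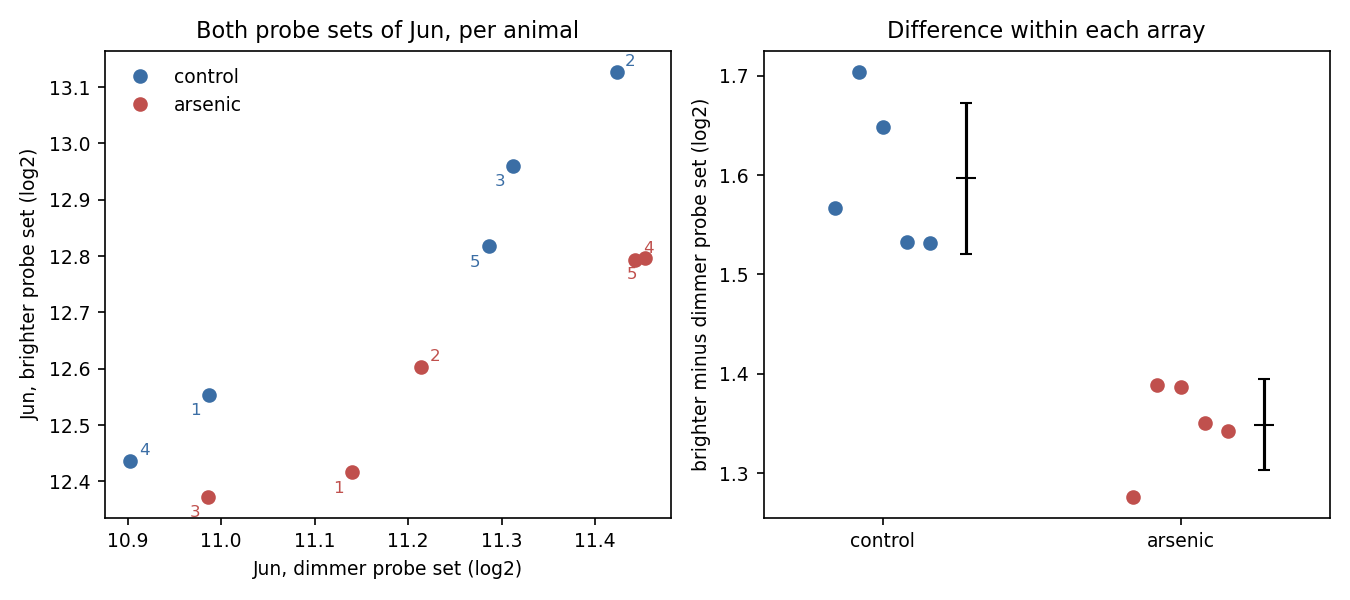
Left, the log2 values of the dimmer (x axis) and brighter (y axis) Jun probe set in each animal, numbered by replicate; right, their difference within each array with group mean and SD. The points of each group lie along their own line, and the differences are 1.53 to 1.70 in controls and 1.28 to 1.39 with arsenic.

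Junb, an immediate-early subunit that often restrains Jun, read 7.10, 7.60, 6.67, 6.90 and 7.13 in controls and 6.99, 7.45, 7.00, 6.89 and 7.33 with arsenic. Animals 2 of each group were the highest of their group. The difference was 0.05 (SE 0.17, 95% confidence interval -0.33 to 0.43, limma adjusted p = 0.891). It was -0.050 without control animal 3 and -0.028 without arsenic animal 2, so even its sign depends on single animals.

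Jund, the steadily expressed subunit, had the narrowest values of the 8. It read 11.18, 11.14, 11.16, 11.04 and 11.36 in controls and 11.11, 11.29, 11.16, 11.13 and 11.18 with arsenic. The means were 11.18 ± 0.11 and 11.17 ± 0.07 (SD, n = 5 each). The difference of -0.0031 (SE 0.08, limma adjusted p = 0.986) had a 95% confidence interval of -0.17 to 0.17, a change of -11.2% to 12.2%, the narrowest bound among the members. Its sign turned under other settings, with 0.060 after centring each array on its median. A second Jund probe set lay near 2 on all arrays, at means of 2.06 and 2.04, and was below the filter.

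**Figure D3:**
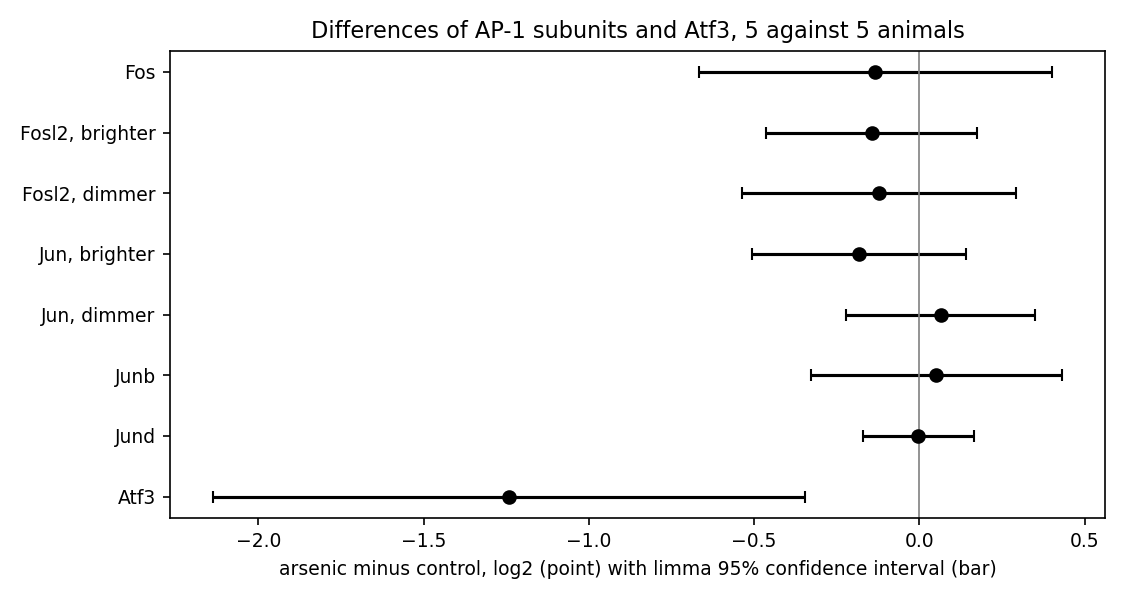
Arsenic minus control difference on the log2 scale for each probe set past the filter (point) with its limma 95% confidence interval (bar), 5 against 5 animals. The interval of Atf3, -2.14 to -0.35, alone leaves out 0, before adjustment over all probe sets.

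The members differed in how much animals of the same group varied. The pooled SD within groups was 0.73 for Atf3, wider than or equal to that of 98.7% of all probe sets past the filter, and 0.43 for Fos, at the 89.9th percentile. The Fosl2 sets lay at the 62.5th (brighter) and 79.0th (dimmer), Junb at the 74.5th and the Jun sets at the 63.3rd and 53.8th percentile. Jund, with 0.10, lay at the 8.73rd. Atf3 and Fos thus had the least precise differences and Jund the most precise. Jun and Junb, also immediate-early genes, lay between them, as did Fosl2.

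Whether members changed unlike each other was tested on the within-array difference of each of the 15 pairs of genes, using the brightest probe set and an exact two-sided permutation test over the 252 splits of the arrays. After adjustment over the 15 pairs, 0 passed, and 4 had an unadjusted p under 0.05, all of them among the 5 pairs with Atf3. These pairs share the same Atf3 values, so the 4 are not separate results. The clearest was Atf3 against Junb. Atf3 minus Junb was 0.12, 0.91, 0.39, 0.29 and 1.20 in controls 1 to 5 and -1.03, -0.26, -1.04, -1.20 and -0.02 in arsenic animals 1 to 5. Every control was positive and every arsenic animal negative, and this was the single pair of the 15 whose groups did not overlap. The means were 0.58 ± 0.45 and -0.71 ± 0.53 (SD, n = 5 each), a shift of -1.29. Its exact permutation p of 0.00794 is the smallest this design allows, and 0.119 after adjustment. A pair that reaches this p alone thus cannot pass over 15 pairs, so its failure to pass decides nothing. Fos minus Atf3 shifted by 1.11 (exact p = 0.0714, adjusted 0.214). Without arsenic animal 5, 3 pairs passed. Among the 10 pairs without Atf3 the shifts ran from -0.23 to 0.05, with no exact p under 0.278. How often pairs drawn from all genes separate, or reach an exact p under 0.05, was not determined. The counts among the 15 pairs therefore have no such share to be read against.

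**Figure D4:**
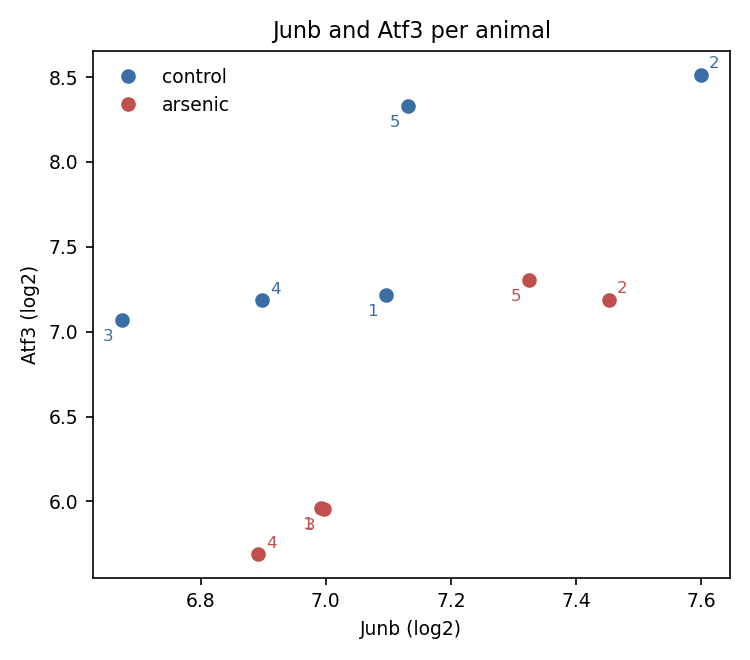
Log2 values of Junb and Atf3 in each animal, numbered by replicate. Within each group Atf3 tends to be higher where Junb is higher, and the arsenic animals lie lower on the Atf3 axis at similar Junb values.

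Junb and Atf3 varied together among the animals of a group, with Pearson correlations of 0.83 over the 5 controls and 0.97 over the 5 arsenic animals, given as descriptions of 5 points each. Over all 10 arrays their correlation was 0.56 (permutation p = 0.0893, adjusted over 15 pairs 0.335) and Spearman's rho 0.77 (permutation p = 0.0127, adjusted 0.150). Without the 2 arrays farthest from the Junb median, r was 0.34. Fosl2 and Atf3 had r = 0.68 over 10 arrays (permutation p = 0.0157, adjusted 0.125) and rho = 0.65 (permutation p = 0.0486, adjusted 0.243), and r = 0.37 without the 2 farthest arrays. Fosl2 and Jund had r = 0.75 (permutation p = 0.0167, adjusted 0.125) and rho = 0.42 (permutation p = 0.233, adjusted 0.434), with r = 0.58 without them. Fos had correlations of -0.09 to 0.30 with the other members over 10 arrays. The highest was with Junb (r = 0.30, permutation p = 0.397, adjusted 0.596; rho = 0.39, permutation p = 0.260, adjusted 0.434), and it was -0.15 without the 2 farthest arrays. None of the 15 correlations passed adjustment.

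Among 11326 other genes, those most like each member over the 10 arrays were listed by Pearson correlation, as a description. For Atf3 these were Cd83 (0.95), Sertad1 (0.95) and Plk2 (0.94), with log2 differences of -0.33, -0.44 and -0.75 between the groups. Their correlations were 0.92, 0.91 and 0.88 once each group's mean was removed. These genes were picked as the most alike of 11326 on the same arrays, so high values follow in part from that choice. Cd83 is a surface protein of activated immune cells and Plk2 an inducible kinase. For Fos they were Ndn (0.90), Arsg (0.88) and Adgrd1 (0.86). For Jun they were Aplnr, the apelin receptor of endothelial cells (0.97), Scarf2 (0.94) and Gon4l (0.93), and for Fosl2 Arid5a (0.94), Hadha (0.93) and Ackr4 (0.91). Sdhaf1, Ilvbl and Kifc3 were most like Junb (0.96, 0.96 and 0.95), and Midn, Tead3 and Flot1 most like Jund (0.97, 0.95 and 0.94).

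The genes around AP-1 were described with 1 probe set per gene, the brightest past the filter. Of 11332 genes represented in this way 0.415% passed the adjusted threshold of 0.05 and 15.3% had an unadjusted p under 0.05. The median log2 difference of all of them was 0.06, and 36.8% had a negative one. The lists were chosen with earlier results of these data known.

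Of 22 measured bZIP partners of Fos, Jun and Atf3, 0 passed, with 5 higher and 1 lower at an unadjusted limma p of 0.05, and the median difference was 0.11. Ddit3, which encodes the stress factor CHOP, was at 9.05 ± 0.12 and 9.55 ± 0.23 in control and arsenic lungs (log2, SD, n = 5 each; limma adjusted p = 0.104). Crem, a cyclic AMP response factor with repressor isoforms, was at 7.97 ± 0.23 and 8.48 ± 0.13 (adjusted p = 0.105). Cebpa, a factor of epithelial and myeloid differentiation, was at 11.29 ± 0.14 and 11.66 ± 0.14 (adjusted p = 0.130), and Jdp2, a Jun dimerisation partner that represses AP-1 targets, at 10.10 ± 0.21 and 10.44 ± 0.10 (adjusted p = 0.173). In all 4, picked for the smallest p, the groups did not overlap, and none passed; Crem's other probe set had 0.22 where this one had 0.51. In the list as a whole the groups did not overlap in 4 of 22 genes, and in 3.63% of all genes represented.

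Of 21 measured genes of the MAP kinase cascades that feed AP-1, 0 passed, with 0 higher and 4 lower at an unadjusted limma p of 0.05, and the median difference was 0.13. Mapk8, the gene of the Jun kinase JNK1, was at 8.44 ± 0.44 and 7.43 ± 0.52 (limma adjusted p = 0.141), but its other probe set past the filter had a difference of 0.10. Braf, a kinase upstream of ERK, had -0.76, and its 7 other probe sets ran from -0.68 to -0.11. Map3k1, a JNK-activating kinase, had -0.22 and -0.02 on its second probe set, and Rps6ka5, the nuclear kinase MSK1 downstream of ERK and p38, had -0.22 and -0.41. None of these passed.

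Of 16 measured factors that bind the Fos and Jun promoters, or coactivators of such factors, 0 passed, and the median difference was 0.01. At an unadjusted limma p of 0.05, 1 was higher and 2 were lower. Mef2c, which binds the Jun promoter, had -0.49 and its 4 other probe sets -0.99 to -0.50 (adjusted p = 0.163 for the brightest). Crtc2, a CREB coactivator, had 0.26, Creb1 -0.57 and Mef2a -0.41, with another Creb1 probe set at 0.14. Of 12 measured genes of AP-1 mRNA and protein turnover, 0 passed, with 2 higher and 3 lower at an unadjusted limma p of 0.05, and the median was -0.01. Zfp36l1, which promotes decay of AU-rich mRNAs, was at 13.15 ± 0.16 and 12.81 ± 0.13 (limma adjusted p = 0.157). Det1, of the ubiquitin ligase that degrades Jun, had 0.37. The RNA-binding Hnrnpd had -0.17, and -0.59 on its second probe set. The Jun ubiquitin ligase subunit Fbxw7 had -0.45, and -0.77 on its second probe set.

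Of 16 measured AP-1 target genes, 0 passed, with 2 higher and 1 lower at an unadjusted limma p of 0.05, and 8 differences were positive and 8 negative. Ptgs2, the inducible cyclooxygenase, had -1.36 (SE 0.26, limma adjusted p = 0.0588) with groups that did not overlap, and -1.46 on its second probe set; it passed in 1 of the 10 fits without 1 array, that without control animal 2. Bcl2l11, which encodes the death-promoting BIM, had 0.33, Ecm1 0.32 and the hyaluronan receptor Cd44 -0.13.

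Of 18 measured genes of the integrated stress response, the pathway in which ATF4 induces Atf3, 0 passed, with 6 higher and 1 lower at an unadjusted limma p of 0.05. Their median difference was 0.17 and 16 of the 18 were positive. Chac1, which breaks down glutathione, was at 5.75 ± 0.30 and 6.59 ± 0.35 (limma adjusted p = 0.0957), Gadd45g at 8.40 ± 0.12 and 9.25 ± 0.47 (adjusted p = 0.104) and Gadd45b at 10.31 ± 0.20 and 10.78 ± 0.19 (adjusted p = 0.131). Gadd45g passed without arsenic animal 1. Atf4 itself, named after its value was seen, had -0.0059. Atf3 thus had a negative difference beside positive ones of Chac1 and Ddit3, which were picked for their small p. In the same list Ppp1r15a had 0.0062, Sesn2 0.045 and Eif2ak2 -0.81. None of these genes passed, Atf3 included, and the contrast was not tested.

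A list of 37 other immediate-early genes was added after the data were seen. A share over all genes therefore does not measure how unusual its calls are. Of all genes represented, 0.0706% passed lower. Of the 32 measured genes of the list, 3 passed, all lower. These were the nuclear receptor gene Nr4a1 (-2.54, limma adjusted p = 0.00626), Egr3 (-2.53, adjusted p = 0.0256) and Klf4 (-0.55, adjusted p = 0.0471), and the median of the list was 0.01. At an unadjusted limma p of 0.05 there were 6 higher and 8 lower. These calls depended on the arrays and the filter. Klf4 did not pass without any 1 of the 10 arrays, nor Egr3 without control animal 1 or 3 or arsenic animal 2, 3 or 5, and Nr4a1 alone passed without a filter on dim probe sets. Without arsenic animal 4 and control animal 2 together none of the list passed. These 3 genes passed where Fos, Jun and Junb did not, and the difference between them was not tested.

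**Figure D5:**
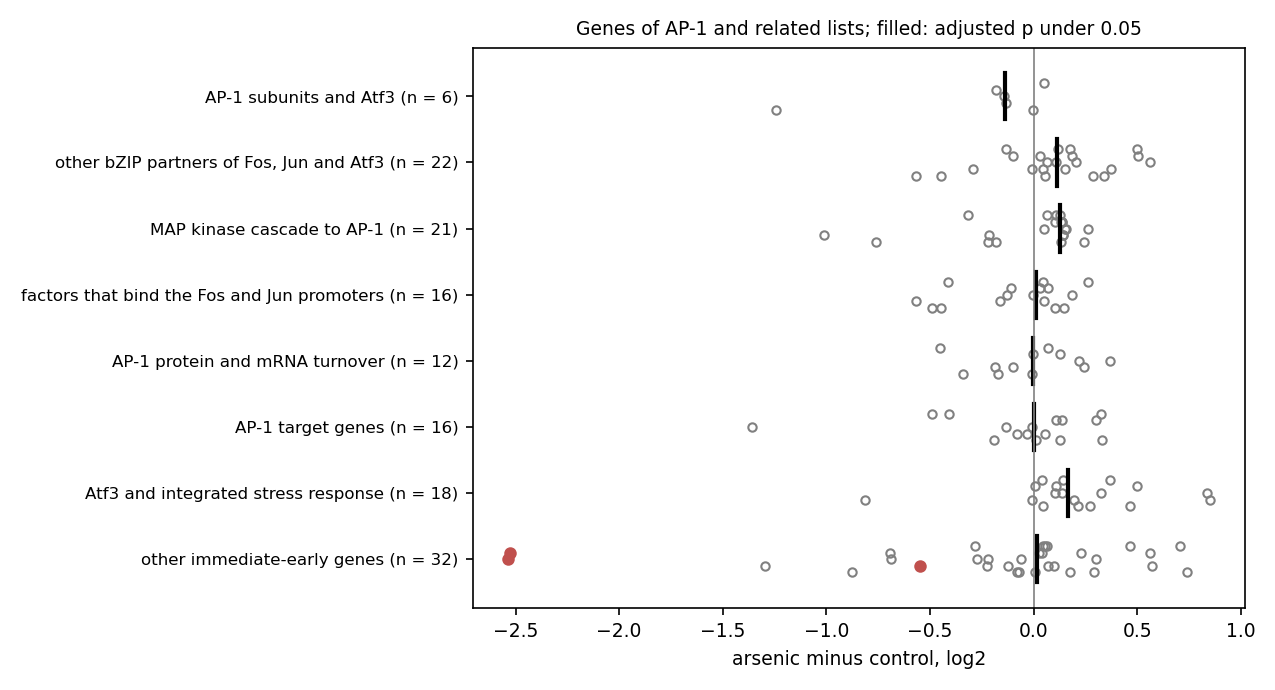
Arsenic minus control difference on the log2 scale, 1 point per gene past the filter, for the members and the related lists; the bar is the list's median and filled points have a limma adjusted p under 0.05. The filled points are Nr4a1, Egr3 and Klf4, all among the other immediate-early genes.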

How the data were processed

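Total RNA from lung tissue was extracted with Trizol, column-cleaned, biotin-labelled and hybridised, per the labels' protocols. The deposited log2 values, 1 per probe set and array, were made by the authors with GCRMA, per the submitters' processing notes; the sources used here state neither its version nor any filter. The log2 scale was read from the range, 0.619 to 16.3, and array medians lay between 4.11 and 4.26. GCRMA presses dim probe sets towards a floor and so understates their differences. Precision is limited by the 5 animals a group. Titles of arsenic samples carry 20 and those of controls 4 as first number; if this marks a cage or batch, it cannot be told apart from exposure.

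Symbols came from the platform annotation (34958 probe sets with 1, 932 with several, 9211 unlisted). Probe sets above the table median on at least 5 arrays were fitted with limma 3.58.1 in R 4.3.3, without covariates, control probe sets left out; adjusted p under 0.05 passed. The fit was tested on simulated data. Named genes were the members, up to 4 per list with the smallest p and the 3 most alike per member. Members and lists were chosen with earlier results of these data known. Replicate numbers recur between groups, but deviations of same-numbered animals correlated from -0.26 to 0.15, so they were not treated as pairs. Alternatives were other filters, scalings, variance models, covariates, a replicate block and leaving out arrays.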

Additional observations from a re-analysis of the deposited data

Results flagged for a closer look

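Of 24 groups of 5 animals checked over the 12 probe sets, 2 held an animal far from the others by Dixon's criterion, which chance flags in about 1 of 20 groups. Control animal 5 read 5.51 on the dimmer Fosl2 probe set, while the other controls lay between 4.52 and 4.78. Arsenic animal 2 read 2.18 on a Fosl1 probe set that was below the filter on every array.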

How the results depend on the processing

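With 5 animals a group only large or steady differences can pass, and dim probe sets have little range. The count of member probe sets passing stayed at 0 under 22 of 23 alternatives, the 10 fits without 1 array included. The exception was the replicate block, which pairs animals by title number alone: 1 member passed, Atf3, with an unchanged difference of -1.24 (limma adjusted p = 0.0406), while 4 probe sets passed in all. No animal correlated best with its own number (0 of 10). Over the other alternatives that kept it, Atf3 ran from -1.46 to -0.85 (adjusted p 0.102 to 0.325). The 75th-percentile filter left Atf3 out. The count over all probe sets, 99, was 54 with 1 probe set per gene, 175 (Actb ratio) and 12 (kidney level) with a covariate, 167 with array weights, 19 without a filter, 241 at an adjusted p of 0.10 and 0 without arsenic animal 4 and control animal 2 together, where Atf3 had -0.85. Without 1 array it ran from 12 to 97, lowest without control animal 1 and also over 1.5 times lower without controls 2, 3 or 4 or arsenic animals 2, 3 or 5. The number of gene pairs with unlike changes ran from 0 to 3 without 1 array (3 without arsenic animal 5, 0 without any other), and Fos minus Atf3 from 0.82 to 1.39. The Jun probe set shift, added after the data were seen, ran from -0.27 to -0.22 over 17 alternatives, also added then, and passed in 0 (adjusted p 0.110 to 0.331). Signs turned for values near 0: Jund had 0.0015 with the Actb ratio, 0.060 with median centring and 0.049 with the kidney level, and ran from -0.038 to 0.041 without 1 array. Without 1 array Junb ran from -0.050 to 0.18, the dimmer Fosl2 set from -0.22 to 0.040 and the dimmer Jun set from -0.0049 to 0.13. The cause of these changes was not tested. With the replicate block, quantile normalization or no filter, 0 genes of the other AP-1 lists passed; without 1 array, fits added after the data were seen, these lists had 0 to 1 (Ptgs2 without control animal 2, Gadd45g without arsenic animal 1). Of the added immediate-early list 3 passed, 4 with quantile normalization, 1 with the block (Nr4a1), 1 without a filter, 1 to 2 without 1 array and 0 without arsenic animal 4 and control animal 2 together. Median centring was not run for gene pairs, since it cannot alter a difference within an array.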
